A study of Mus musculus with 40 samples.

Results

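Cytotoxic lymphocytes kill target cells along a pair of routes, and the transcripts of 10 genes that serve them were examined in CT26 tumors. The genes are those of the granzymes Gzma, Gzmb, Gzmc, Gzmd, Gzme, Gzmf and Gzmk, of perforin (Prf1), of the granule membrane protein Nkg7 and of Fas ligand (Fasl). They were chosen by symbol, as 10 of the 54087 genes of a table of read counts, and all 10 were among the 14760 genes that passed a filter on low counts. In the first route, perforin forms pores through which granzymes, serine proteases stored in secretory granules, reach the cytosol of the target cell, where granzyme B cleaves caspases and other proteins. In the second, Fas ligand on the lymphocyte engages the death receptor Fas. CD8+ T cells and natural killer (NK) cells are the main sources of these molecules, TGF-β is known to repress several of their genes, and PD-1 restrains the T cells that carry it.

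CT26 is a mouse colon carcinoma line, and the study implanted 1000000 of its cells under the skin of mice. Monoclonal antibodies were injected on days 6, 9 and 12, and fragments of 1 tumor per mouse were collected on day 13, so that each library holds the RNA of tumor, stromal and immune cells together. The epithelial markers Epcam, Krt8, Krt18 and Cdh1 were low, with a summed level of 4.7 to 341.6 CPM per mouse and group medians of 9.1 to 21.3. The 40 mice formed 8 groups of 5. The isotype control group received motavizumab. The other groups received anti-GARP:TGF-β1 WT or anti-GARP:TGF-β1 FcD (clone 58A2 on a mIgG2a that binds Fcγ receptors or does not), which blocks TGF-β1 activation from GARP on regulatory T cells, anti-TGF-β (clone 1D11), which neutralizes TGF-β itself, anti-PD-1 FcS (Fc-silent), or anti-PD-1 FcS together with 1 of the 3 blockers. The 3 last groups are called the WT, the FcD and the anti-TGF-β combination. The design thus holds 20 mice with anti-PD-1 and 20 without. Counts per mouse summed to 11931730 to 20680548 (median 14030511).

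A few libraries enter several of the results below by standing apart. In the WT combination, mouse 5 had Ptprc (CD45, carried by all leukocytes) at 782.4 CPM (counts scaled to a fixed library total), against 59.9 to 370.9 in the other 39 mice, and Cd8a at 79.7 CPM against at most 39.7. Mouse 4 of the FcD combination had the epithelial keratin Krt8 at 171.7 CPM against at most 60.4, and mouse 2 of the anti-PD-1 group had the muscle kinase Ckm at 22.8 CPM against at most 2.61. Mice 1 and 3 of the anti-PD-1 group had the lowest Cd8a of the 40 mice, 2.29 and 1.21 CPM, and mouse 5 of the anti-GARP:TGF-β1 FcD group had 3.19 CPM. The library numbers in the labels run from 41 to 80, and every group holds 2 or 3 mice in each of the parts 41 to 60 and 61 to 80. Where the call of a gene ended within these parts, or without the first 3 of the mice named here, this is said beside it.

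Several of the granzyme genes form a cluster on the minus strand of chromosome 14 in GRCm38, in which the 7 protein-coding genes from Gzme to Gzmb, over 144.6 kb, are all granzymes. The order is Gzme (chr14:56117626-56120625), Gzmd (chr14:56129556-56132608), Gzmg, Gzmn, Gzmf (chr14:56205263-56211417), Gzmc (chr14:56231441-56234656) and Gzmb (chr14:56258838-56262260). Gzma (chr13:113093825-113100981) and Gzmk (chr13:113171608-113225908) are neighbours on chromosome 13, and Prf1, Nkg7 and Fasl lie on chromosomes 10, 7 and 1. The longest transcripts of Gzmd and Gzme were identical at 90.5% of aligned bases, Gzmd and Gzmf at 83.5%, Gzmc and Gzmd at 70.6% and Gzmb and Gzmd at 52.0%. Reads were 100 bases long, and of all stretches of 100 bases in the transcripts of Gzmc, Gzme and Gzmf, 0% occur in another gene. In Gzmd the share was 0.231%, all of it in common with Gzmg, so that these close copies can largely be told apart by exact reads, although reads with mismatches could still be shared out wrongly.

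The promoters of the cluster are shown because the genes behind them moved together from mouse to mouse, as described further on, with Gzmb apart from the others. Each sequence runs 5′ to 3′ from 250 bases before the start of the RefSeq transcript to 50 bases after it (GRCm38.p6, minus strand). The windows are chr14:56262285-56262584 for Gzmb, chr14:56234608-56234907 for Gzmc, chr14:56132544-56132843 for Gzmd, chr14:56120576-56120875 for Gzme and chr14:56211358-56211657 for Gzmf. Capitals mark exact matches, on either strand, to 3 motifs chosen after the sequences were seen, namely TGTGGT (the core that RUNX factors bind), TGANTCA (AP-1) and TGACGTCA (the cyclic AMP response element, CRE), and no match of one motif overlapped another here.
Gzmb: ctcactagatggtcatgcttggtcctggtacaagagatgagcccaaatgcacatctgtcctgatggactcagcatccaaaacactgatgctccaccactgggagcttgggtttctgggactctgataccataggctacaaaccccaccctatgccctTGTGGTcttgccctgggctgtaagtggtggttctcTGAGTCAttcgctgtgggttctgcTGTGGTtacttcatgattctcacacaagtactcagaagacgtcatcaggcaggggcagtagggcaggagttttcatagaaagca
Gzmc: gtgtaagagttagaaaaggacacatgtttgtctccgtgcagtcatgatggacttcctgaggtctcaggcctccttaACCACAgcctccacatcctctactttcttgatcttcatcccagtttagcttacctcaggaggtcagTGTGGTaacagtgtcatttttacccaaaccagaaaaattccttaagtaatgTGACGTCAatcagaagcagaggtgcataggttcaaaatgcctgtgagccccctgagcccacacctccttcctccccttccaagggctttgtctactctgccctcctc
Gzmd: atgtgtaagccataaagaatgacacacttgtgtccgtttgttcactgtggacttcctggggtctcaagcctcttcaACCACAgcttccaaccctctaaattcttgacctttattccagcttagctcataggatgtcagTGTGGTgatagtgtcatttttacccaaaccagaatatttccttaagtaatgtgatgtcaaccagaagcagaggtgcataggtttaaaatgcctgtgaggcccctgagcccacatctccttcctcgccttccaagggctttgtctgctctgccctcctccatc
Gzme: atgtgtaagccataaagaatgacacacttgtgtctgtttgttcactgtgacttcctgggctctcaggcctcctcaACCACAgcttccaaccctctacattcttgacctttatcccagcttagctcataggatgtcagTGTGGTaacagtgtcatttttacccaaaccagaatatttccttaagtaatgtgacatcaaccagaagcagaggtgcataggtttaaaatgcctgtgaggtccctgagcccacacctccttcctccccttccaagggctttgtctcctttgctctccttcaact
Gzmf: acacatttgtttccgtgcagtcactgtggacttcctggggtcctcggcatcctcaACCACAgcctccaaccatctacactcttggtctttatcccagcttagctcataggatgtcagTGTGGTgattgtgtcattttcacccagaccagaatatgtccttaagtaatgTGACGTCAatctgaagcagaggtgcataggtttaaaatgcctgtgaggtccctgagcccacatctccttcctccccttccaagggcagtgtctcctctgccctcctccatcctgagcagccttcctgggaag

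The Gzmd and Gzme promoters were identical at 93.4% of aligned bases, Gzmc and Gzme at 83.8%, and Gzmd and Gzmf at 77.6%, whereas Gzmb matched these 4 at 44.4 to 50.2%. The longest run that the promoters of Gzmc, Gzmd, Gzme and Gzmf have in common is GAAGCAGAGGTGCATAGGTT, 20 bases that begin 45 to 70 bases before the start of the transcript. Of the promoters of 27025 gene symbols, 5 held this run, those of the 4 genes and of Gzmg. The RUNX core was in the promoters of 8 of the 10 genes (all but Gzmk and Fasl) and in 16.7% of all 32544 promoters. The AP-1 motif was in that of Gzmb alone (7.79% of all promoters), and the CRE in those of Gzmc and Gzmf (1.8% of all). These matches describe letters in the windows and no binding was measured.

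In the isotype control, Gzmc and Gzmb were the most abundant of the genes per length of their exons, at 47.2 ± 21.1 and 41.6 ± 13.1 CPM per kb (SD, n = 5). Gzmf (31.9 ± 25.0), Gzmd (29.2 ± 20.1) and Gzma (29.0 ± 13.3) followed, then Nkg7 (18.4 ± 4.42), Prf1 (17.1 ± 4.01) and Gzme (11.8 ± 7.48 CPM per kb). Gzmk and Fasl were at 1.26 ± 0.475 and 1.19 ± 0.248 CPM per kb. Neighbours in this order, from Gzmc down to Gzme, lay within the larger SD of the pair, and the step from Gzme to Gzmk was the one that exceeded the spread. Over all 40 mice the levels ranged 9.21-fold for Gzmc and 12.5-fold for Gzma, but 99.5-fold for Gzme, 135.0-fold for Gzmd and 139.0-fold for Gzmf. Gzmk rested on 3 to 332 reads per mouse (median 18.5) and Fasl on 10 to 202 (median 39.0), so their values are the least precise, while Gzmb had a median of 1121.5 reads.

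**Figure D1:**
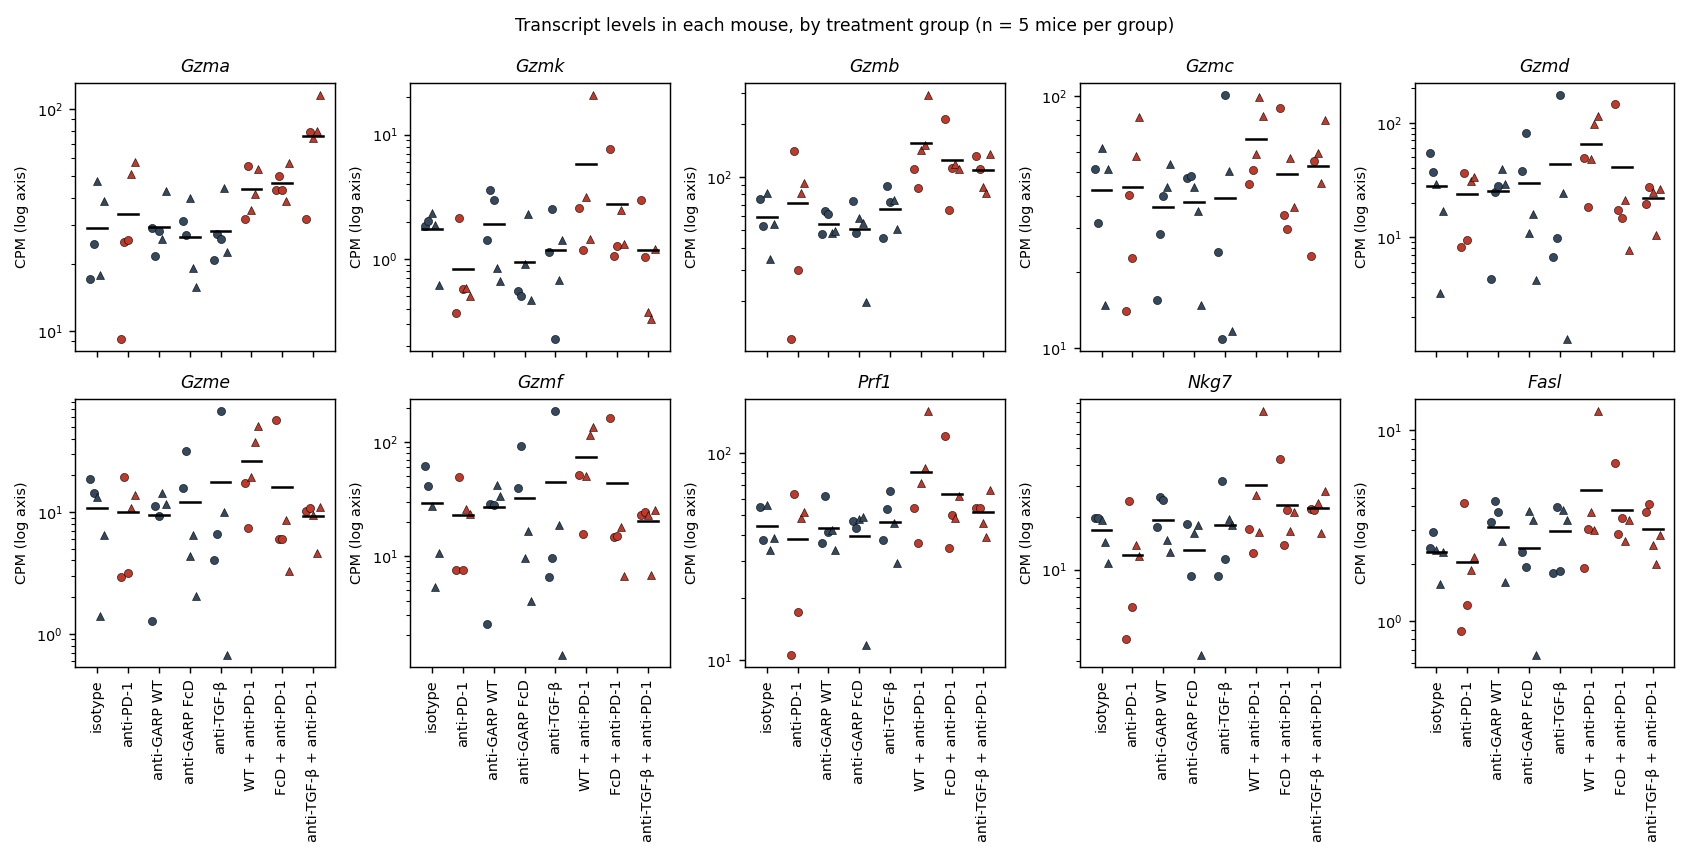
Level of each gene in CPM on a logarithmic axis in each of 40 mice, by group. Circles are libraries 41 to 60, triangles libraries 61 to 80, red marks mice given anti-PD-1, and black lines are group means of 5 mice. Gzma in the anti-TGF-β combination and Gzmb in all 3 combinations stand above most mice of the other groups, and Gzmd, Gzme and Gzmf spread over 2 orders of magnitude within the anti-TGF-β group.

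Taken over all groups, granzymes A and B were higher with anti-PD-1 than without it. Anti-PD-1 alone against isotype gave log2 fold changes of 0.25 for Gzmb and 0.21 for Gzma, and neither was called. Gzmb was 1.93-fold higher in the 20 mice given anti-PD-1 than in the 20 without it (log2 fold change 0.94, SE 0.20, edgeR adjusted p = 0.0304), and Gzma was 1.68-fold higher (0.75, SE 0.17, adjusted p = 0.0482). Of all genes tested, 87 of 14760 (0.589%) were called in this comparison. The other 8 genes gave log2 fold changes of 0.10 to 0.52 and were not called, and the median of the 10 was 0.36, against 0.00 for all genes.

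Gzmb ranged from 12.2 to 290.3 CPM with anti-PD-1 (median 111.6) and from 19.8 to 88.9 CPM without it (median 54.8). In 13 of 20 mice with anti-PD-1 it was above every mouse without the antibody. The groups that made up this difference were not alike. In the anti-PD-1 group Gzmb stood at 12.2, 140.0, 29.9, 81.3 and 92.6 CPM, across the whole of the isotype range of 34.7 to 81.8. In the WT combination it was at 111.7, 86.6, 143.0, 151.1 and 290.3 CPM, all above the isotype control. The FcD combination had 213.2, 65.6, 113.4, 119.3 and 110.8 CPM, and the anti-TGF-β combination 131.3, 111.6, 88.4, 81.8 and 135.4. One mouse of each of the last 2 groups thus did not exceed the isotype control. Adding anti-PD-1 gave log2 fold changes of Gzmb of 0.25 on isotype control, 1.52 on anti-GARP:TGF-β1 WT, 1.28 on FcD and 0.73 on anti-TGF-β. The adjusted p of the last 3 were 0.0963, 0.131 and 0.502 in the main edgeR fit. That fit called none of the 10 genes in these 3 comparisons, in which 0% of all genes passed. DESeq2's Wald test called Gzmb on anti-GARP:TGF-β1 WT (1.53, adjusted p = 0.047; 2.42% of all genes).

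Gzma, a tryptase-like granzyme, ranged from 9.23 to 115.6 CPM with anti-PD-1 (median 46.5) and from 15.8 to 47.4 without it (median 26.6). In the isotype control it was at 17.1, 24.6, 47.4, 17.9 and 38.7 CPM. The anti-TGF-β combination had the highest values, 32.1, 79.1, 74.1, 79.5 and 115.6 CPM, and 4 of its 5 mice exceeded all 20 mice without anti-PD-1. The WT combination (31.9 to 55.6 CPM) and the FcD combination (38.4 to 57.5 CPM) overlapped the isotype control. Anti-PD-1 alone gave 9.23, 25.2, 25.8, 51.1 and 57.6 CPM.

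Both calls were lost in some settings. Without the filter on low counts, none of 31326 genes was called by edgeR (0%), with log2 fold changes of 0.95 for Gzmb and 0.75 for Gzma. In libraries 41 to 60 the log2 fold changes were 0.65 for Gzmb and 0.62 for Gzma with an adjusted p of 1 each in edgeR, and in libraries 61 to 80 they were 1.16 (adjusted p = 0.0179) and 0.84 (adjusted p = 0.0534), with 0% and 1.8% of all genes called. Without the 3 mice with outlying Ptprc, Krt8 or Ckm they were 0.76 and 0.76 (edgeR adjusted p = 0.162 and 0.154). All 3 of these mice had received anti-PD-1, so that this setting trims only that side of the comparison. Leaving out single mice moved Gzmb over 0.84 to 1.01 and Gzma over 0.68 to 0.81 while ending the call in 15 and 25 of 40 cases.

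Transcripts of T cells did not pass the test in the comparison of mice with and without anti-PD-1. With anti-PD-1, 0 of 5 T cell markers and 0 of 2 CD8 markers had an adjusted p under 0.05 or an unadjusted p under 0.05, with log2 fold changes of −0.19 (SE 0.32) for Cd8a, 0.12 (SE 0.33) for Cd8b1 and −0.02 (SE 0.28) for Cd3e. The summed level of the 5 T cell markers had a median of 45.3 CPM in the isotype control (26.3 to 56.1) and of 41.0 to 44.7 CPM in the 3 combinations, and 25.0 CPM with anti-PD-1 alone (16.4 to 62.6). Of 5 NK markers, 3 had an unadjusted p under 0.05 and were higher (Ncr1 0.33, Klrb1c 0.47 and Eomes 0.40 on the log2 scale), and none passed the adjusted test. Mast cell markers moved as far as the granzymes. All 5 were higher at an unadjusted p under 0.05, and the proteases Cma1 (0.98, SE 0.23) and Tpsb2 (1.01, SE 0.24) passed with an adjusted p of 0.0498 each. Both calls were lost in the settings in which no gene of any kind was called, namely without the filter (edgeR adjusted p = 0.117 each), in libraries 41 to 60 (0.92 and 0.87) and without the 3 outlying mice (0.63 and 0.64), and also in libraries 61 to 80 (0.80 and 0.92) and in 30 of 40 cases with 1 mouse left out. All 4 CD4 and regulatory T cell markers, all 3 neutrophil markers and all 4 epithelial markers were also higher at an unadjusted p under 0.05. So were the leukocyte gene Ptprc (0.54, SE 0.21), Trdc of gamma-delta T cells (0.45, SE 0.16), 2 of 3 macrophage markers (Adgre1 0.69 and Cd68 0.42) and 1 of 3 plasmacytoid dendritic cell markers, and 2 of 3 fibroblast markers were lower, while 0 of 3 B cell, 0 of 3 muscle and 0 of 3 adipocyte markers differed at that threshold. None of these passed the adjusted test (edgeR adjusted p = 0.117 for Ptprc). Mast cells can also transcribe granzyme genes, and the part of any of these cells in the result was not tested. In bulk tumor RNA, more cells of a type and more RNA per cell cannot be told apart. Relative to the mean log2 level of Cd3d, Cd3e, Cd3g, Cd8a and Cd8b1, Gzmb differed by 0.95 (SE 0.29, limma adjusted p = 0.279) and Gzma by 0.84 (SE 0.33, adjusted p = 0.626) between mice with and without anti-PD-1. These 2 alone had an unadjusted p under 0.05, none of the 10 genes passed, and their median was 0.63 where that of all genes was 0.12 (5.18% of all genes had an unadjusted p under 0.05). Relative to Cd8a and Cd8b1, 3 of the 10 had an unadjusted p under 0.05 and 0 passed (median 0.73, all genes 0.22; 6.55% of all genes). Relative to Ptprc, 0 of the 10 had an unadjusted p under 0.05 (median 0.04, all genes −0.47; 58.9% of all genes), with Gzmb at 0.36 (SE 0.19, limma adjusted p = 0.101) and Gzma at 0.25 (SE 0.26, adjusted p = 0.386).

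**Figure D2:**
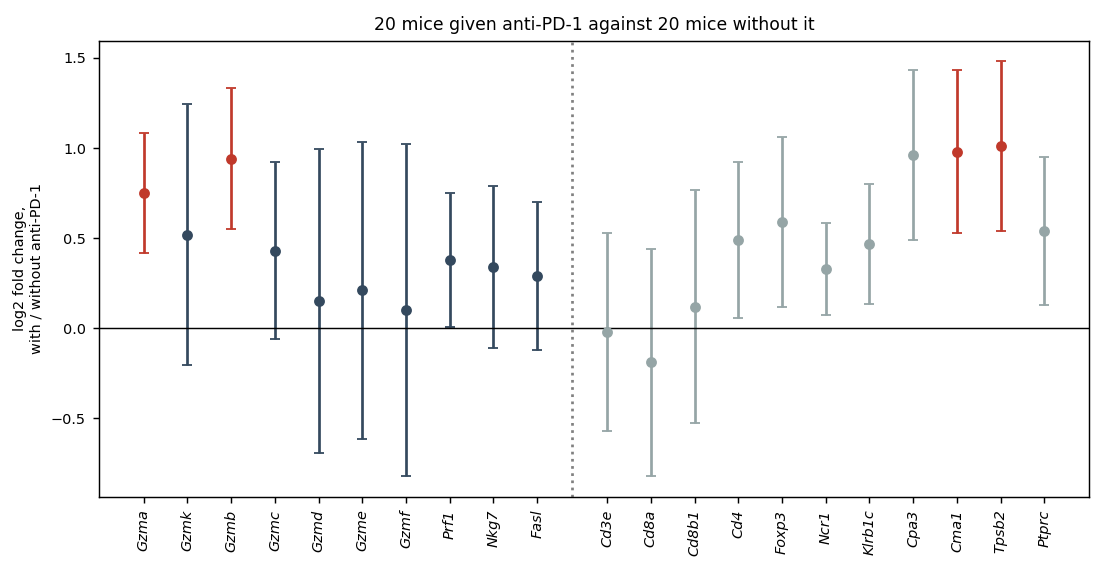
Log2 fold change of the 20 mice with anti-PD-1 against the 20 without, with normal 95% intervals, for the 10 genes (left) and for markers of T cells, NK cells, mast cells and leukocytes (right). Red marks an adjusted p under 0.05, reached by Gzma, Gzmb, Cma1 and Tpsb2, and the intervals of Cd3e, Cd8a and Cd8b1 span 0.

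None of the other 8 genes was called with anti-PD-1. Prf1 was at 10.6 to 158.8 CPM with anti-PD-1 (median 53.0) and 11.8 to 65.3 without (median 42.7), a log2 fold change of 0.38 (SE 0.19, adjusted p = 0.226) that was 0.00 in libraries 41 to 60 and 0.68 in libraries 61 to 80. Gzmc gave 0.43 (SE 0.25), Gzmk 0.52 (SE 0.37), Nkg7, which takes part in granule release, 0.34 (SE 0.23) and Fasl 0.29 (SE 0.21). Gzmd, Gzme and Gzmf gave 0.15, 0.21 and 0.10, with SEs of 0.43, 0.42 and 0.47 that leave room for a change of nearly 1 on the log2 scale either way for Gzmf (95% interval −0.81 to 1.01). Summing Gzmd, Gzme, Gzmf and Gzmg to 1 feature gave 0.09 (SE 0.46). Leaving out mouse 1 of the FcD combination turned the sign of all 3, to −0.20 for Gzmd, −0.14 for Gzme and −0.32 for Gzmf.

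No difference from the isotype control was called for any of the killing genes with a single agent. At an unadjusted p under 0.05, 0 of the 10 genes differed with anti-GARP:TGF-β1 WT, FcD, anti-TGF-β or anti-PD-1 alone, and 0% of all genes passed the adjusted test in each. Of all genes, 0.583%, 0.264%, 1.77% and 0.603% were higher at that unadjusted threshold in the same order. The median log2 fold change of the 10 genes was −0.08, −0.14, 0.13 and −0.19. Without mouse 2 of the anti-PD-1 group, Gzmk was lower than in the isotype control with anti-PD-1 alone at that threshold (−1.76, SE 0.84, edgeR adjusted p = 1). Gzmb, for example, was at 47.6, 64.8, 62.2, 48.3 and 49.7 CPM with anti-GARP:TGF-β1 WT, inside the isotype range. Over all mice, a blocker against none gave 0.10 to 0.62, with no gene called (0% of all genes).

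With the combinations the fold changes against isotype were larger, but none passed the adjusted test in the main edgeR fit. In the WT combination all 10 genes had positive log2 fold changes (median 1.14, all genes 0.01), and Gzmk (1.73, SE 0.71), Gzmb (1.39, SE 0.40), Fasl (1.07, SE 0.43) and Prf1 (0.87, SE 0.39) had an unadjusted p under 0.05, 4 of 10 where 13.2% of all genes were higher at that threshold. Their adjusted p were 0.181, 0.159, 0.175 and 0.204. In the FcD combination all 10 were positive too (median 0.57), and Gzmb alone had an unadjusted p under 0.05 (1.06, SE 0.40, adjusted p = 0.241), where 10.7% of all genes were higher. In the anti-TGF-β combination 6 of 10 were positive (median 0.28), and Gzma (1.38, SE 0.35, adjusted p = 0.106) and Gzmb (0.88, SE 0.40, adjusted p = 0.216) had an unadjusted p under 0.05, against 8.49% of all genes higher. Gzma was called there without isotype mouse 3 (1.63, edgeR adjusted p = 0.0342; 4.88% of all genes called) and without mouse 1 of the combination (1.59, adjusted p = 0.0111; 13.4%), and by DESeq2's Wald test (1.39, adjusted p = 0.0232; 1.3%). No gene of the 14760 passed the adjusted test of the main edgeR fit in any of these 3 comparisons (0%). With the WT and FcD combinations pooled, 3 of the 10 (Gzmb 1.22, Fasl 0.89 and Gzma 0.63) were higher than in the isotype control at an unadjusted p under 0.05, where 15% of all genes were, and 0% of all genes passed the adjusted test. Gzmb, with an edgeR adjusted p of 0.113, was called in 3 other fits, with DESeq2 (1.23, adjusted p = 0.0342; 2.22% of all genes), in libraries 61 to 80 (1.39, adjusted p = 0.0242; 17.8%) and without mouse 2 of the FcD combination (1.29, adjusted p = 0.046; 4.63%). All these comparisons share the same 5 isotype mice. The medians of Ptprc in these tumors also lay above that of the isotype control, with overlapping ranges. Ptprc was at 152.4 to 782.4 CPM in the WT combination (median 169.8), 106.8 to 282.2 in the FcD combination (median 274.5) and 93.8 to 242.7 in the anti-TGF-β combination (median 138.9), against 106.6 to 176.4 in the isotype control (median 127.6). Other markers were higher in the anti-TGF-β combination at an unadjusted p under 0.05. They were 2 of 5 NK markers (Klrb1c 1.06 and Ncr1 0.65), Trdc (0.90), Cd4 (1.03), Foxp3 (1.56) and Bst2 (0.60). So were 2 of 5 mast cell, 2 of 3 neutrophil and 3 of 3 B cell markers. Of 5 T cell and 2 CD8 markers, 0 differed there. The part of these cells in the result was not tested. Relative to Ptprc, the median of the 10 genes was −0.02 in the WT combination (all genes −0.85), −0.42 in the FcD combination (all genes −0.78) and 0.17 in the anti-TGF-β combination (all genes −0.12), and relative to the 5 T cell transcripts 0.46, 0.23 and 0.53 (all genes −0.37, −0.13 and 0.25). At an unadjusted p under 0.05, 0, 0 and 2 of the 10 differed in both ratios, where 40.1%, 19.3% and 2.09% of all genes did relative to Ptprc and 0.298%, 2.02% and 0.982% relative to the T cell transcripts, and Gzmb relative to Ptprc gave 0.47 (SE 0.39), 0.24 (SE 0.39) and 0.78 (SE 0.39) in the same order.

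Gzmk, Nkg7 and Fasl in the WT combination rested on mouse 5, the mouse with the highest Ptprc. Gzmk, a granzyme of memory-like T cells, was at 2.55, 1.18, 3.16, 1.46 and 20.7 CPM, against 0.623 to 2.36 in the isotype control. Fasl was at 1.90, 3.03, 3.73, 3.0 and 12.6 CPM, and Nkg7 at 17.1, 12.5, 26.8, 16.4 and 81.1. Without that mouse the log2 fold changes against isotype were 0.25 for Gzmk, 0.11 for Nkg7, 0.34 for Fasl and 0.48 for Prf1 (54.2, 36.9, 71.5, 84.2 and 158.8 CPM), and 1.04 for Gzmb. In the FcD combination, mouse 1 carried Gzmd, Gzme and Gzmf, which without it were at −0.89, −0.86 and −1.11 against isotype. The library parts differed widely. In libraries 41 to 60 alone, 7 of the 10 genes were below the isotype control in the WT combination (Gzmf −0.64, Nkg7 −0.42), and in libraries 61 to 80 alone Gzmb (1.77), Gzme (2.32), Gzmf (2.77) and Prf1 (1.28) were called, 4 of 10 where 14.2% of all genes were.

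**Figure D3:**
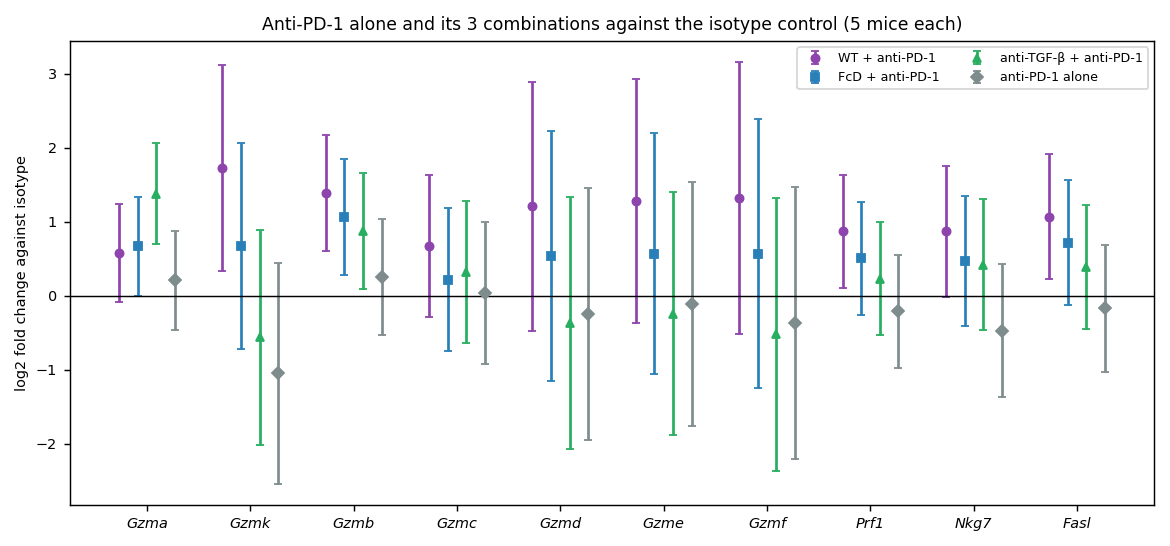
Log2 fold change against the isotype control, with normal 95% intervals, for anti-PD-1 alone and its 3 combinations (5 mice each). Gzmb lies above 0 in the 3 combinations, Gzma is highest in the anti-TGF-β combination (1.38), and the intervals of Gzmd, Gzme and Gzmf cross 0 in each group.

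Against anti-PD-1 alone, no gene of the 10 was called with all mice. Without mouse 2 of the anti-PD-1 group, which had the outlying Ckm, 4 were called in the WT combination, namely Gzmk (3.49), Nkg7 (1.77), Fasl (1.66) and Gzmb (1.53), with edgeR adjusted p of 0.0414 to 0.0421 and 3.6% of all genes called. Without mouse 1 of the anti-TGF-β combination, Gzma was called in that group (1.38, adjusted p = 0.016; 11.6% of all genes). At an unadjusted p under 0.05, 5 were higher in the WT combination (Gzmk 2.78, Nkg7 1.34, Fasl 1.24, Gzmb 1.14 and Prf1 1.08; 11.2% of all genes), 4 in the FcD combination (Gzmk 1.72, Nkg7 0.94, Fasl 0.89 and Gzmb 0.80; 6.46% of all genes) and 1 in the anti-TGF-β combination (Gzma 1.17; 7% of all genes). The count of 4 was not stable, and is given here with the share of all genes higher in each setting. It fell to 2 with DESeq2's size factors (6.44%), 2 without the filter (4.85%) and 2 in libraries 41 to 60 (1.36%). It was 1 with the library part as a covariate (6.8%), 1 with only these groups in the model (6.99%) and 0 in libraries 61 to 80 (9.08%). It rose to 5 without the 3 outlying mice (10.1%). Without mouse 1, 3 or 4 of the anti-PD-1 group or mouse 1 of the FcD combination it was 0, without mouse 3 or 5 of that combination 1, and without mouse 5 of the anti-PD-1 group 2. The count of 5 in the WT combination was 0 without mouse 5 of that group and 1 in libraries 41 to 60 (0.973% of all genes higher). In the anti-TGF-β combination the count was 4 without mouse 2 of the anti-PD-1 group, 2 without mouse 4 of the combination and 0 in libraries 61 to 80 (9.06% of all genes higher). By the adjusted test 0%, 0% and 0.00678% of all genes passed. Relative to the 5 T cell transcripts, 0 of the 10 differed at that unadjusted threshold in any of the 3 combinations, although 82.7%, 63.7% and 13.8% of all genes did (79.6% in the WT combination by limma's adjusted test). The medians of the 10 were −0.22, −0.53 and −0.40 (all genes −1.57, −1.33 and −0.95). Relative to Ptprc, 1, 0 and 3 of the 10 differed (58.3%, 36.9% and 2.43% of all genes), with medians of 0.42, −0.05 and 0.35 (all genes −0.93, −0.85 and −0.19). Mice 1 and 3 of the anti-PD-1 group, which had the low Cd8a values, were low in most of the 10 genes, for example 10.6 and 17.0 CPM of Prf1 against 63.5, 48.7 and 51.8. Against the matching blocker alone, 3, 3 and 1 of the 10 were higher at an unadjusted p under 0.05, where 16.6%, 13% and 3.96% of all genes were. For WT the count was 7 with only these groups in the model (12.4% of all genes higher), 5 in libraries 61 to 80 (20.5%) and 0 in libraries 41 to 60 (0.772%). It was 1 without the 3 outlying mice (8.07%), without mouse 1 or 5 of the blocker group or without mouse 5 of the combination. For FcD it was 5 without the 3 outlying mice (11%) or without mouse 2 of the combination (16.6%), and 1 in libraries 41 to 60 (1.1%) or without mouse 5 of the blocker group. For anti-TGF-β it was 2 without the 3 outlying mice (5.56%), with only these groups in the model (2.76%), or without mouse 2 or 3 of the blocker group. Gzmb was called against anti-GARP:TGF-β1 WT without mouse 2 of the WT combination (1.67, edgeR adjusted p = 0.0418; 11.4% of all genes) and against FcD without mouse 2 of the FcD combination (1.43, adjusted p = 0.0468; 4.81%). In libraries 61 to 80, Gzmb (1.98), Gzmk (3.45) and Prf1 (1.45) were called against anti-GARP:TGF-β1 WT, with 21% of all genes. The interaction, the part of a combination's difference that the single agents do not add up to, was positive for all 10 genes with WT (median 1.20) and with FcD (median 0.82). With anti-TGF-β it was positive for 7 of 10 (median 0.38, lowest −0.82). But relative to the 5 T cell transcripts the medians were −0.14, −0.96 and −0.05 (all genes −1.49, −1.89 and −0.90). At an unadjusted p under 0.05 the interaction, without that scaling, was higher for 2 genes with WT (Gzmk 2.63 and Gzmb 1.27), 1 with FcD (Gzmk 2.59) and 1 with anti-TGF-β (Gzma 1.22), where 4.3%, 2.45% and 0.752% of all genes were. Without mouse 2 of the anti-PD-1 group the first and second of these counts were 5 and 5, without mouse 5 of the WT combination the first was 0, without mouse 1 of the FcD combination the second was 0, and without isotype mouse 3 the third was 0. The smallest adjusted p were 0.483, 0.787 and 0.959, and 0% of all genes passed.

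The anti-GARP:TGF-β1 combinations and the anti-TGF-β combination differed in Gzma and Gzmk. Gzma was lower with the 2 anti-GARP:TGF-β1 combinations than with anti-TGF-β + anti-PD-1 (log2 fold change −0.76, SE 0.29, adjusted p = 0.0472) and Gzmk was higher (1.75, SE 0.67, adjusted p = 0.0496). In this comparison 25.9% of all genes were called, so that 2 of 10 is no more than the share of all genes. Gzmk stood at 2.96, 1.04, 0.378, 0.329 and 1.21 CPM in the anti-TGF-β combination, at 7.71, 1.06, 1.28, 2.49 and 1.33 in the FcD combination, and as given above in the WT combination, so that the groups overlapped. Gzmd, Gzme and Gzmf gave 1.25 (SE 0.79), 1.16 (SE 0.76) and 1.47 (SE 0.86) and were not called. Markers of other cells moved in the same comparison. Kit, a receptor of mast cells, was higher (0.91, SE 0.32, edgeR adjusted p = 0.0353) and Bst2, listed for plasmacytoid dendritic cells, lower (−0.40, SE 0.14, adjusted p = 0.0313). Ptprc (0.83, SE 0.37), the macrophage gene Adgre1 (1.09, SE 0.46), Ikzf2 of regulatory T cells (0.73) and the epithelial Cdh1 (1.27) were higher and the B cell gene Cd79a was lower (−2.53) at an unadjusted p under 0.05, with none past the adjusted test. The CD8 markers Cd8a and Cd8b1 gave 0.96 (SE 0.58) and 1.09 (SE 0.59), and 0 of 5 T cell and 0 of 5 NK markers differed at that threshold. Kit and Bst2 lost their calls without the filter (edgeR adjusted p = 0.0766 and 0.0565), in libraries 41 to 60 (−0.07 and −0.08) and without the 3 outlying mice (0.40 and −0.35), and in 6 and 5 of 15 cases with 1 mouse left out. The part of these cells in the result was not tested. Relative to Ptprc, Gzmk gave 0.69 (SE 0.39, limma adjusted p = 0.173) and Gzma −1.36 (SE 0.44, adjusted p = 0.14), and relative to the 5 T cell transcripts 0.88 (SE 0.51) and −1.16 (SE 0.56), with an adjusted p of 0.742 each, so that neither passed. Both calls were lost without the filter on low counts (edgeR, 0 of the 10 and 7.83% of all genes called), in libraries 41 to 60 (−0.33 and 0.32) and without the 3 outlying mice (−0.79 and 1.02). That of Gzma was also lost with the library part as a covariate (−0.67, adjusted p = 0.0579), and leaving out 1 of the 15 mice ended that of Gzma in 10 cases and that of Gzmk in 8.

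The Fc format of the antibody made no called difference. Between the FcD and the WT combination the log2 fold changes were −1.06 to 0.09, with 0% of all genes called. The 95% intervals were −1.10 to 0.44 for Gzmb, −0.57 to 0.76 for Gzma and −1.11 to 0.40 for Prf1, so that changes within these bounds cannot be told from none. Over all 8 groups together, 0.0271% of all genes were called, and among the 10 the smallest adjusted p were those of Gzma (0.106), Gzmb (0.110) and Gzmk (0.131).

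Mice of the same group differed widely in these genes, and the 10 genes fell into sets that moved together. For each gene the deviation from the mean of its group was taken on the log2 CPM scale, and pairs of genes were correlated over the 40 mice with a permutation test. Of 45 pairs, 27 passed an adjusted p under 0.05 over 125 relations, and all 27 were positive (median r over the 45 pairs 0.577).

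Gzmd, Gzme and Gzmf, whose promoters are shown above, were nearly a single variable. Gzmd and Gzme correlated with r = 0.991 (rho 0.983, adjusted p = 4.81e-05 for r and 5.21e-05 for rho, permutation), Gzme and Gzmf with r = 0.986 and Gzmd and Gzmf with r = 0.983, and the r of Gzmd and Gzme was 0.984 and 0.995 in the 2 library parts and 0.988 without the 2 mice farthest from the median. Gzmc followed Gzmd less closely (r = 0.811, rho 0.787), and Gzmb less again (r = 0.578, rho 0.671). Mice of 1 group could differ widely in this set. Gzmd ranged from 3.22 to 54.3 CPM in the isotype control and from 4.25 to 80.6 with anti-GARP:TGF-β1 FcD. In the anti-TGF-β group Gzmd was at 6.77, 9.90, 173.7, 24.4 and 1.29 CPM and Gzmf at 6.53, 9.59, 187.3, 18.5 and 1.35. In the FcD combination Gzmd was at 144.9, 17.1, 14.7, 21.3 and 7.77 CPM. The mouse at 173.7 CPM had little Cd8a (6.15 CPM, with a median of 12.9 in the others) and the mouse at 144.9 CPM had much (29.5 CPM). Correlation with Cd8a was accordingly weak for Gzmd (r = 0.148, rho 0.215) and Gzmc (r = −0.0213, rho −0.0351), and neither passed.

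Gzmb and Prf1 moved together (r = 0.940, rho 0.926, adjusted p = 4.81e-05 and 5.21e-05, permutation), with r of 0.947 and 0.940 within the library parts. Both also followed Cd8a, Gzmb with r = 0.691 (rho 0.670) and Prf1 with r = 0.681 (rho 0.604). Nkg7 and Fasl were the closest to the CD8 transcripts, with r of 0.906 (rho 0.905) and 0.862 (rho 0.850) to Cd8a, and 0.904 to each other. Gzmk belonged with them (r = 0.820, rho 0.808 to Cd8a), with r of 0.801 and 0.829 within the parts. The adjusted p of the r and rho in this paragraph were 4.81e-05 to 0.00111.

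Gzma did not follow the CD8 transcripts. Its correlation with Cd8a was 0.00207 (rho −0.0992) and with Gzmk −0.167 (rho −0.234), neither of which passed, whereas r with Gzmc was 0.601 (rho 0.575). The r with Gzmc was 0.294 in libraries 41 to 60 and 0.793 in libraries 61 to 80. With Ncr1, the NK receptor NKp46, Gzma correlated with r = 0.596 (rho 0.646, adjusted p = 0.000875 and 0.000234, permutation), 0.550 and 0.877 within the library parts and 0.675 without the 2 mice farthest from the median. This was the highest r with Ncr1 among the 10 genes. With Klrb1c (NK1.1), 4 of the 10 passed, and r was 0.529 for Gzmb, 0.522 for Gzma, 0.492 for Nkg7 and 0.419 for Fasl. Of the 10 genes, 0 correlated with Foxp3 past the adjusted threshold, 5 with Cd8a, 4 with Ncr1 and 5 with the mast cell gene Cpa3, whose r with Gzmb was 0.579 (0.819 and 0.478 within the parts).

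**Figure D4:**
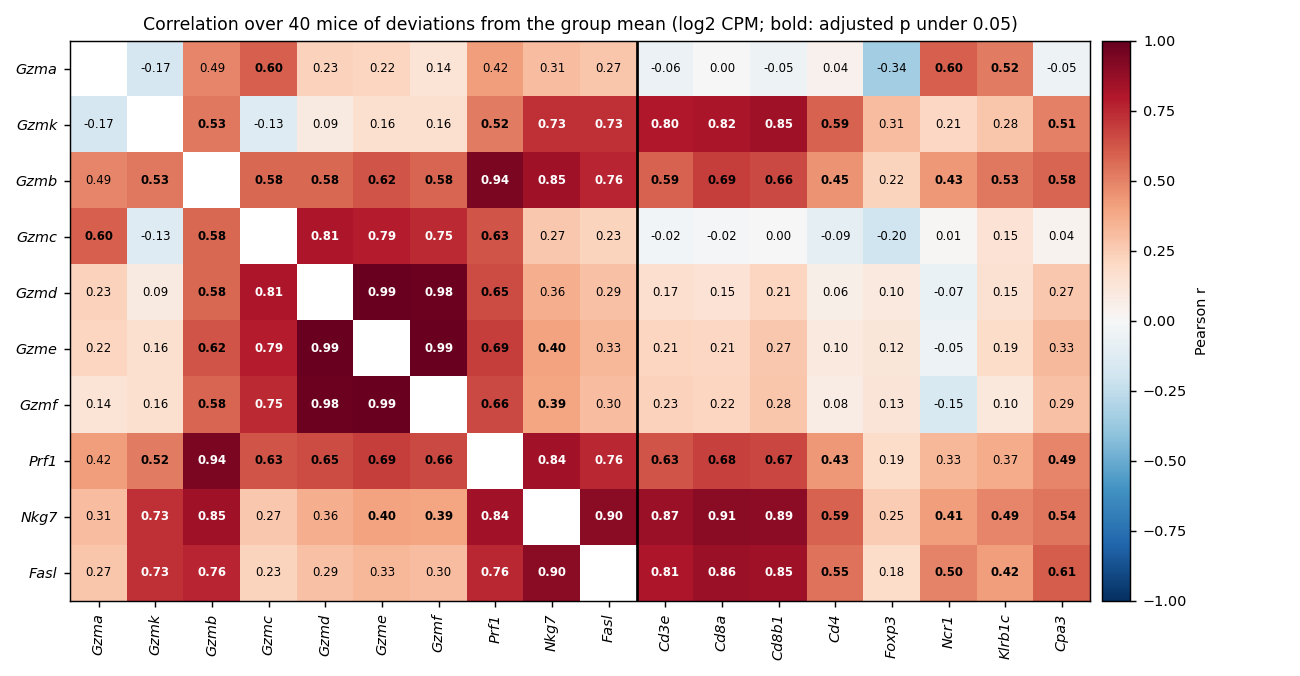
Pearson r over 40 mice of the deviations from the group mean, for pairs of the 10 genes (left of the line) and with 8 marker genes (right). Bold values have an adjusted p under 0.05 in a permutation test. Gzmd, Gzme and Gzmf form a block above 0.98, Gzmk, Nkg7 and Fasl join the T cell transcripts, and Gzma has its highest marker value with Ncr1 (0.596).

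The genes outside the 10 with the most similar pattern were found by Spearman's rho of log2 CPM over the 40 mice. For Gzma they were Trdc (0.741), Ncr1 (0.739) and Klrg1 (0.715), and for Gzmb Il18bp (0.897), Gla (0.895) and Acod1 (0.895). For Gzmc the first was Klrg1 (0.898). Gzmg was first for Gzmd (0.980), Gzme (0.956) and Gzmf (0.978), with Fcrl6 next at 0.894 to 0.908. For Prf1 the first was the serpin gene Serpinb9b (0.865), for Nkg7 Lag3 (0.941), for Fasl Klrd1 (0.855) and for Gzmk Themis (0.874). These values are a description over mice of all groups, and treatments that move both genes of a pair add to them.

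**Figure D5:**
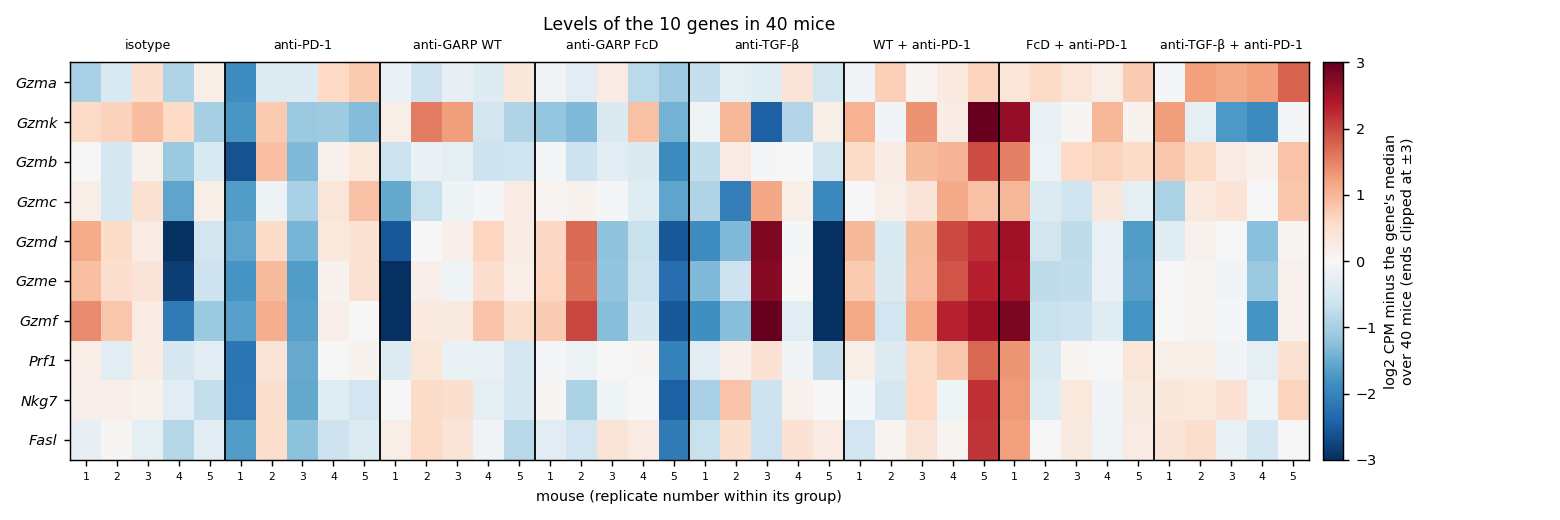
Level of each gene in each mouse as log2 CPM minus the gene's median over 40 mice (colours clipped at ±3), with mice in order of replicate number within groups. Mouse 5 of the WT combination and mouse 1 of the FcD combination are high in most genes, mice 1 and 3 of the anti-PD-1 group are low, and mouse 3 of the anti-TGF-β group is high for Gzmd, Gzme and Gzmf (173.7, 67.1 and 187.3 CPM) but not for Gzmk (0.228 CPM).

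Genes of the machinery around the killing molecules were read from lists. With anti-PD-1, 13.3% of all genes were higher at an unadjusted p under 0.05, and the median log2 fold change of all genes was 0.00. Of 8 granule genes tested (median 0.26), 6 were higher at that threshold and 0 passed the adjusted test, among them Srgn (0.51, SE 0.13), the proteoglycan that packs granzymes, and Ctsc (0.59, SE 0.19), the protease that activates them. In the isotype control Ctsc and Srgn averaged 636.1 and 76.7 CPM, against 59.7 for Gzmb. Which cells carried these transcripts was not tested. Of 8 exocytosis genes (median 0.25) 6 were higher and 0 passed, with Unc13d at 0.45 and Stxbp2 at 0.47. All 4 granzyme inhibitors (median 0.49) were higher at that threshold and 0 passed, with Serpinb9, which inhibits granzyme B, at 0.41 (SE 0.12). Of 12 death receptor genes (median 0.06) 4 were higher and 1 lower, Fas among the higher at 0.32 (SE 0.09), and Tnf passed the adjusted test (0.69, SE 0.17, adjusted p = 0.0498). Of 11 transcription factors (median 0.27) 5 were higher and 0 passed. Of 4 cytokines (median 0.30) 3 were higher, and Ifng passed (1.00, SE 0.24, adjusted p = 0.0498). The calls of Tnf and Ifng were lost without the filter on low counts (edgeR adjusted p = 0.117 and 0.0923), in libraries 41 to 60 (0.51 and 0.63) and without the 3 outlying mice (0.52 and 0.74), and in 31 and 30 of 40 cases with 1 mouse left out. With anti-PD-1 alone, group means lay near the isotype control. Srgn was at 80.7 against 76.7 CPM, Ctsc 636.6 against 636.1, Stxbp2 21.4 against 21.8 and Serpinb9 36.4 against 36.0. Tnf was at 9.79 against 8.35 and Ifng at 1.39 against 1.19. The 3 combinations held 114.4 to 137.7 CPM of Srgn and 3.09 to 3.36 of Ifng. Of the other granzymes, Gzmg (−0.04) and Gzmm (0.10) were not called, and Gzmn did not pass the filter on low counts.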

How the data were processed

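Tumor RNA of 40 mice was sequenced from stranded mRNA libraries. The authors aligned reads to GRCm38 with STAR 2.5.3a, used SAMtools 1.6 and HTSeq 0.9.1 (the submitters' processing notes), and deposited raw counts of 54087 genes without normalization. The gene annotation they counted on is not given in the sources used here. The tool versions for this work were edgeR 4.0.16, limma 3.58.1, DESeq2 1.42.0 and R 4.3.3, with Python 3.11.15.

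Counts were normalized by TMM, filtered with filterByExpr (14760 genes) and tested with edgeR's robust quasi-likelihood test in 1 model of all 40 mice, with Benjamini-Hochberg adjustment over all genes tested and a threshold of 0.05. Levels are CPM with TMM factors. Ratios to T cell transcripts were tested with limma. Correlations used log2 CPM (prior count 2) and 100000 permutations within groups, 2-sided. P-values measure the spread between mice. Counts of 2 mice of a group differed by 5.85 to 217.6 chi-square per degree of freedom over 80 pairs, so none was a repeat. Mice were numbered 1 to 5 in accession order. The 10 genes, the gene and marker lists and the tests were chosen with earlier results of these data known. All 10 genes were named, for other lists at most 3 genes with the smallest p in both anti-GARP:TGF-β1 combinations against isotype, or those called with anti-PD-1, and for each gene the 3 of most similar pattern. Genes of the machinery lists that were called between the combinations are not named. Gene positions came from a GENCODE annotation of GRCm38, and promoters from RefSeq (GRCm38.p6), which held all 10 genes. Tested on simulated counts of the WT combination against isotype with 200 of 14760 genes changed, 69.5% were recovered at a log2 fold change of 1 (3 false calls) and 90.5% at 2 (4 false calls). The simulated counts were drawn gene by gene, with no outlying mice and no variation shared between genes. These shares therefore do not give the power of the test for the 10 genes. Alternatives were DESeq2's size factors and Wald test, no filter, only the 2 groups compared, the library part as a covariate or stratum, and each mouse left out, and for ratios and correlations a prior count of 0.5, other denominators and no removal of group means. Others were added after seeing the data, 3 mice left out together and the sum of Gzmd, Gzme, Gzmf and Gzmg.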

Additional observations from a re-analysis of the deposited data

Results flagged for a closer look

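In groups of 5 mice, a mouse was picked out where its distance to the next mouse exceeded 0.71 of the group's range, which chance gives in about 1 group in 20 if values are normally distributed. CPM values are skewed to the right, so the count on this scale cannot be set against that share. Of 80 groups (10 genes in 8 groups) 18 had such a mouse in CPM, from 8 mice, and 10 had one on the log2 scale, of which 5 were the same on both. Those 5 were Gzme and Gzmf in mouse 4 of the anti-TGF-β combination, Gzmk in mouse 2 of the anti-PD-1 group, Prf1 in mouse 5 of the anti-GARP:TGF-β1 FcD group and Fasl in mouse 1 of the FcD combination. Mouse 1 of the FcD combination was picked out for 6 genes, Gzmd (144.9 CPM, next 21.3), Gzme (56.6, next 8.63), Gzmf (164.5, next 17.9), Gzmk (7.71, next 2.49), Nkg7 (42.9, next 22) and Fasl (6.70, next 3.45). Mouse 5 of the WT combination was picked out for Gzmk (20.7 CPM, next 3.16), Nkg7 (81.1, next 26.8) and Fasl (12.6, next 3.73), and mouse 3 of the anti-TGF-β group for Gzmd (173.7 CPM, next 24.4), Gzme (67.1, next 9.90) and Gzmf (187.3, next 18.5). Mouse 4 of the anti-TGF-β combination was the lowest of its group for Gzme (4.61 CPM, next 9.52) and Gzmf (6.84, next 22.8). The others were Gzma in mouse 4 of the anti-TGF-β group (44.1 CPM), Gzmk in mouse 2 of the anti-PD-1 group (2.14 CPM) and in mouse 4 of the anti-GARP:TGF-β1 FcD group (2.30 CPM), and Prf1 in mouse 5 of the last group (11.8 CPM, next 43.3). Genes that move together share these flags, so they are not independent.

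Between the anti-GARP:TGF-β1 combinations and the anti-TGF-β combination, Gzma (log2 fold change −0.76) and Gzmk (1.75) differed with an edgeR adjusted p under 0.05, among 25.9% of all genes.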

How the results depend on the processing

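Apart from leaving out single mice, 54 counts of called genes moved by over 1.5 times and 266 did not, and of the fold changes of the 10 genes 22 turned sign, 14 lost and 5 gained a call, and 283 did none of these. The counts of genes with an adjusted p under 0.05 for anti-PD-1 (2) became 0 without a filter, 0 in libraries 41 to 60, 1 in libraries 61 to 80 and 0 without the 3 outlying mice. Gzma then gave 0.75 without a filter, 0.62 in libraries 41 to 60, 0.84 in 61 to 80 and 0.76 without the 3 mice, and Gzmb 0.95 without a filter, 0.65 in libraries 41 to 60 and 0.76 without the 3 mice. For the anti-GARP:TGF-β1 combinations against the anti-TGF-β combination, 2 called genes became 0 without a filter, 1 with the library part as a covariate, 0 in libraries 41 to 60 and 0 without the 3 mice. Gzma gave −0.76, −0.67, −0.33 and −0.79 in these settings, and Gzmk 1.75 without a filter, 0.32 in libraries 41 to 60 and 1.02 without the 3 mice. Libraries 61 to 80 called 4 genes in the WT combination against isotype (14.2% of all genes) and 3 against anti-GARP:TGF-β1 WT (21% of all genes), and DESeq2's Wald test called 1 in the latter (2.42%) and 1 in the anti-TGF-β combination against isotype (Gzma, 1.3%). Counts at an unadjusted p under 0.05 follow, with the share of all genes higher in the same fit in brackets. The WT combination had 1 gene in libraries 41 to 60 (0.557%), 8 in 61 to 80 (20.8%) and 1 without the 3 mice (2.96%). The FcD combination had 2 with the covariate (10.7%), 3 with 2 groups in the model (14.9%), 2 without the 3 mice (8.19%) and 2 with DESeq2 (6.36%). The anti-TGF-β combination had 1 in libraries 41 to 60 (1.17%), and anti-PD-1 alone had 2 without the 3 mice, both lower than isotype (Gzmk −1.77 and Nkg7 −0.90), while the other genes counted here were higher. Against anti-PD-1 alone, the WT combination had 1 in libraries 41 to 60 (0.973%). The FcD combination had 2 with DESeq2's size factors (6.44%), 2 without a filter (4.85%), 1 with the covariate (6.8%), 2 in libraries 41 to 60 (1.36%), 0 in 61 to 80 (9.08%), 1 with 2 groups (6.99%) and 5 without the 3 mice (10.1%). The anti-TGF-β combination had 0 in libraries 61 to 80 (9.06%), 2 with 2 groups (7.04%), 4 without the 3 mice (9.7%) and 2 with DESeq2 (4%). Against its own blocker, the WT combination had 0 in libraries 41 to 60 (0.772%), 5 in 61 to 80 (20.5%), 7 with 2 groups (12.4%) and 1 without the 3 mice (8.07%). The FcD combination had 1 in libraries 41 to 60 (1.1%) and 5 without the 3 mice (11%), and the anti-TGF-β combination 2 with 2 groups (2.76%) and 2 without the 3 mice (5.56%). The interaction with WT had 0 in libraries 41 to 60 (0.933%) and 1 without the 3 mice (5.73%). With FcD it had 0 in libraries 61 to 80 (4.15%), 5 without the 3 mice (7.66%) and 2 with DESeq2 (1.87%). With anti-TGF-β it had 0 in libraries 61 to 80 (2.3%) and 2 without the 3 mice (1.57%). All mice with against without anti-PD-1 had 1 in libraries 41 to 60 (1.02%) and 4 in 61 to 80 (14.5%). The WT and FcD combinations together against isotype had 1 in libraries 41 to 60 (0.785%), 1 without the 3 mice (6.27%) and 5 with DESeq2 (8.77%). By the adjusted test they had 1 in libraries 61 to 80 (17.8% of all genes called) and 1 with DESeq2 (2.22%). In libraries 41 to 60 the sign turned for Gzmc (−0.01), Gzmd (−0.49), Gzme (−0.39), Gzmf (−0.51) and Nkg7 (−0.03) with anti-PD-1. It turned for Gzmd (−0.45), Gzme (−0.42), Gzmf (−0.64), Gzmk (−0.07), Prf1 (−0.03), Nkg7 (−0.42) and Fasl (−0.10) in the WT combination, and for Gzmc (−0.07) and Gzmk (0.04) in the anti-TGF-β combination. In libraries 61 to 80 it turned for Gzmd (−0.20), Gzme (−0.26) and Gzmf (−0.25) in the FcD combination and for Gzmd (0.31), Gzme (0.24) and Gzmf (0.33) in the anti-TGF-β combination. Without the 3 mice it turned for Gzmf (−0.07) and Gzmk (−0.03) with anti-PD-1. The cause was not tested.

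Mouse 1 of the FcD combination set most of the ranges that cross 0, and Gzma was called in the anti-TGF-β combination against isotype without isotype mouse 3 or mouse 1 of the combination, with 4.88% and 13.4% of all genes. With single mice left out, the fold change with anti-PD-1 ran from 0.68 to 0.81 for Gzma, 0.84 to 1.01 for Gzmb, −0.20 to 0.66 for Gzmd, −0.14 to 0.64 for Gzme and −0.32 to 0.67 for Gzmf. In the FcD combination it ran from −0.11 to 0.38 for Gzmc, −0.89 to 0.92 for Gzmd, −0.86 to 0.85 for Gzme, −1.11 to 1.03 for Gzmf and −0.18 to 0.85 for Gzmk, and in the anti-TGF-β combination from −0.65 to 0.02 for Gzmd and −0.51 to 0.07 for Gzme. Between combinations it ran from −0.97 to −0.57 for Gzma and 1.02 to 2.39 for Gzmk. Called genes then numbered 0 to 2 with anti-PD-1 and between combinations, 0 to 4 for the WT combination against anti-PD-1 (4 without anti-PD-1 mouse 2, with 3.6% of all genes), and 0 to 1 for the anti-TGF-β combination against isotype and against anti-PD-1 (11.6% of all genes where 1 was called) and for the WT and FcD combinations against their own blocker (11.4% and 4.81%). At an unadjusted p under 0.05 they numbered 1 to 5 (WT), 0 to 2 (FcD), 1 to 2 (anti-TGF-β) and 0 to 1 (anti-PD-1 alone, Gzmk lower) against isotype, 1 to 4 for the WT and FcD combinations together (0 to 1 by the adjusted test), 0 to 6 (WT), 0 to 5 (FcD) and 1 to 4 (anti-TGF-β) against anti-PD-1, 1 to 3, 1 to 5 and 1 to 2 against the own blocker, 0 to 5, 0 to 5 and 0 to 1 for the interactions, and 2 to 4 with anti-PD-1. The share of all genes at that threshold also moved with the mouse left out, so these counts cannot be read alone. With anti-PD-1, for example, 9.29% of all genes were higher without mouse 5 of the WT combination. Without mouse 2 of the anti-TGF-β group the share was 18.8%. The 8 groups held different mice, so no paired analysis applied.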
